A study of Mus musculus with 4 samples.

Results

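Aminoacyl-tRNA synthetases, the enzymes that attach each amino acid to its transfer RNA, were measured by RNA sequencing in mouse bone marrow derived monocytes and macrophages on the way to osteoclasts. The members are the genes whose symbol is 1 capital letter followed by ars, alone or with 1, 2, a or b at the end, and Eprs, which gave 37 of the 21834 genes in the deposited table. Of these, 20 encode cytosolic enzymes and 16 encode mitochondrial enzymes, which have symbols ending in 2. Lars2, the mitochondrial leucyl-tRNA synthetase, is described apart. All 37 passed the filter on low counts. The table uses older symbols for most cytosolic members, such as Aars for the alanyl-tRNA synthetase.

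The 4 libraries form 2 groups of 2, one with the genotype label Nat10 conditional knockout (cKO) and one labelled WT. Nat10 encodes the enzyme that makes N4-acetylcytidine in RNA, including serine and leucine transfer RNAs. Cells of both groups came from bone marrow and had been cultured with RANKL, the cytokine that drives osteoclast formation, for 3 days, and both were washed in buffer with cycloheximide, which stalls ribosomes, before lysis. The sources used here do not give the Cre driver of the deletion, the exons removed, or the strain, age and sex of the mice. Nor do they say whether replicates are separate animals, and the p-values therefore reflect library-to-library spread, which could be technical.

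Total counts were 10037338 to 14097638 per library. Nat10 itself had 184 and 205 counts in the cKO-labelled libraries and 165 and 238 in WT, and its difference did not pass (log2 fold change -0.24, SE 0.153, edgeR adjusted p = 0.263). Counting reads over the full gene cannot show whether single exons were removed, so every direction below rests on the labels. All 10 osteoclast markers and all 10 macrophage markers examined were measured, among them Acp5, Ctsk, Adgre1 and Csf1r. In the cKO-labelled libraries 7 osteoclast markers were higher and 2 lower, with a median log2 fold change of 0.48, and 3 macrophage markers were higher and 3 lower, where 14.4% of all genes were called in each direction. Of 12 stromal and osteoblast markers, 11 were tested and 10 were higher in the cKO-labelled libraries (14.4% of all genes were higher), where the list summed to 1687 and 1796 CPM (reads of a gene per 1000000 counted reads, after TMM scaling) against 456 and 518 CPM in WT. Within that list Sp7 was at 0 counts in both WT libraries. Of 8 neutrophil markers, 6 were tested, with 4 higher and 1, Mmp8, lower (14.4% of all genes in each direction), and they summed to 803 and 906 CPM against 485 and 498 CPM. Of 6 B cell, T cell and erythroid markers only Cd79a was high enough to test, and Cd3g was at 0 in all 4 libraries. The part of these shifts in cell type markers in the results below was not tested. In bulk RNA, fewer cells of a type and less RNA per cell cannot be told apart.

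Every protein made on a ribosome depends on charged transfer RNAs, and mammalian cells keep separate sets of synthetases for cytosolic and mitochondrial translation, both encoded in the nucleus. Kars and Gars are known to serve both compartments, and Eprs joins the glutamyl and the prolyl enzyme in 1 chain. Several cytosolic synthetases assemble with the scaffold proteins Aimp1, Aimp2 and Eef1e1 into a multi-synthetase complex. When amino acids run short, the kinase GCN2 (gene Eif2ak4) senses uncharged transfer RNA, and the transcription factor ATF4 that is then translated is known to raise many cytosolic synthetase genes together with genes of amino acid transport and synthesis. Wars, the tryptophanyl-tRNA synthetase, is also known as a gene induced by interferon gamma.

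Promoter windows from RefSeq (build GRCm38.p6, from 250 bases before to 50 bases after the gene's start) were matched to 27 of the 37 members, 13 cytosolic and 14 mitochondrial with Lars2. They were searched on both strands for TGATGNAA, the element that ATF4 binds with a C/EBP partner. It was present in 5 of the 13 cytosolic windows (Aars, Gars, Iars, Tars and Yars), in 0 of the 14 mitochondrial ones, and in 3.97% of all 32851 windows. For each gene 1 match is shown with 12 bases on either side because these 5 genes share an element that the choice of members did not use. Each is written 5′ to 3′ on the gene's strand, with the match in capitals. Yars holds it on the strand shown, and the other 4 genes hold its reverse complement.
Aars, 9 bases after the start (chr8:111033839-111033870, plus strand): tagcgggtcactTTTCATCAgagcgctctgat
Gars, 30 bases before the start (chr6:55037959-55037990, plus strand): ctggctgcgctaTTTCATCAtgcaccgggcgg
Iars, 7 bases after the start (chr13:49682125-49682156, plus strand): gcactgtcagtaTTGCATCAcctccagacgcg
Tars, 15 bases before the start (chr15:11399654-11399685, minus strand): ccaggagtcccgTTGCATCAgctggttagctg
Yars, 3 bases after the start (chr4:129189894-129189925, plus strand): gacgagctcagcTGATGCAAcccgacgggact

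The whole window of Dars is given because Dars differed between the groups in the direction opposite to Aars. The window holds neither TGATGNAA nor the reverse complement, so it has no capitals. Dars was picked by its value. The windows of Eprs and Sars also lack the element, yet both genes were lower. Gars, Iars, Tars and Yars hold it and did not pass the test. Whether the element goes with direction was not tested.
Dars (chr1:128417367-128417666, minus strand): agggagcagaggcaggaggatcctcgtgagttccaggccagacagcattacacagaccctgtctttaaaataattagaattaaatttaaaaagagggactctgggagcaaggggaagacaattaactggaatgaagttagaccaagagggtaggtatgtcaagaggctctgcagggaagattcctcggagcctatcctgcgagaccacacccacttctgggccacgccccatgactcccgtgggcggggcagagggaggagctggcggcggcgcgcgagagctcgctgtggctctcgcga

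Of the other motifs searched, the E-box CACGTG was in 4 of the 13 cytosolic windows (Aars, Farsb, Iars and Tars) and in 1 mitochondrial window (Ears2), against 7.15% of all windows. The STAT element TTCNNNGAA was in Aars, Kars and Nars2 (8.30% of all windows), and the interferon-stimulated response element was in Qars (3.44% of all windows). The last 2 motifs share letters and can overlap. These matches describe letters in a window and do not show binding.

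Per length, the cytosolic genes stood well above the mitochondrial ones in both groups. The levels in this paragraph are mean CPM per kilobase of exon, with lengths from GENCODE M21. In WT the cytosolic genes ranged from 5.71 (Farsa, the alpha subunit of the phenylalanyl enzyme) to 64.8 (Nars, the asparaginyl enzyme), with a median of 15.7. The mitochondrial genes without Lars2 ranged from 0.225 (Mars2, the methionyl enzyme) to 4.95 (Rars2, the arginyl enzyme), with a median of 1.48. The cytosolic median was 10.5-fold the mitochondrial median in WT and 9.75-fold in the cKO-labelled libraries, and no mitochondrial gene other than Lars2 reached the lowest cytosolic gene in either group. The exon models behind the authors' counts were not known, so a level per length can shift where they differ from GENCODE M21.

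**Figure D1:**
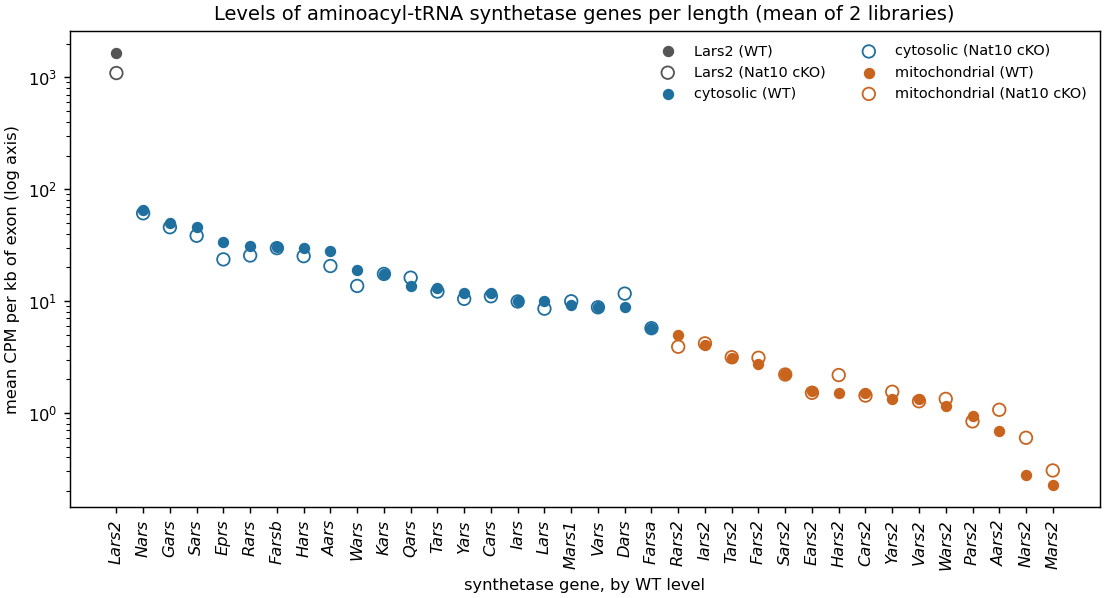
Mean level of each synthetase gene in CPM per kilobase of exon (log axis, n = 2 libraries per group), ordered by its WT level, with WT filled and Nat10 cKO open. Lars2 stands at 1655 in WT and 1092 in Nat10 cKO, and all 20 cytosolic genes lie above the 15 other mitochondrial genes shown.

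Among the cytosolic synthetases, 5 were lower and 1 was higher in the cKO-labelled libraries, and 14 did not pass the test (edgeR quasi-likelihood test, adjusted p under 0.05 over 11448 genes). Eprs, Wars, Aars, Rars and Sars fell and Dars rose, with log2 fold changes from -0.51 to 0.41. Over all genes tested 28.8% were called, so the cytosolic share of 30.0% lies at the background. In 1 direction, 5 of 20 lower compares with 14.4% of all genes, and 1 of 20 higher with 14.4% as well. The counts were 3 lower and 1 higher with DESeq2, 3 and 2 without cKO replicate 2, 2 and 1 without WT replicate 1, and 1 and 0 without WT replicate 2. The median log2 fold change of the 20 was -0.10, against 0.0075 over all genes tested, and 17 of the 20 values were negative. The sign of the small values depended on scaling, with 12 of 20 negative with library size only and 10 of 20 with upper-quartile factors. Groups did not overlap for 11 cytosolic genes that were lower and 3 that were higher, where 31.3% and 32.3% of all genes were lower and higher without overlap, 63.6% in either direction.

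**Figure D2:**
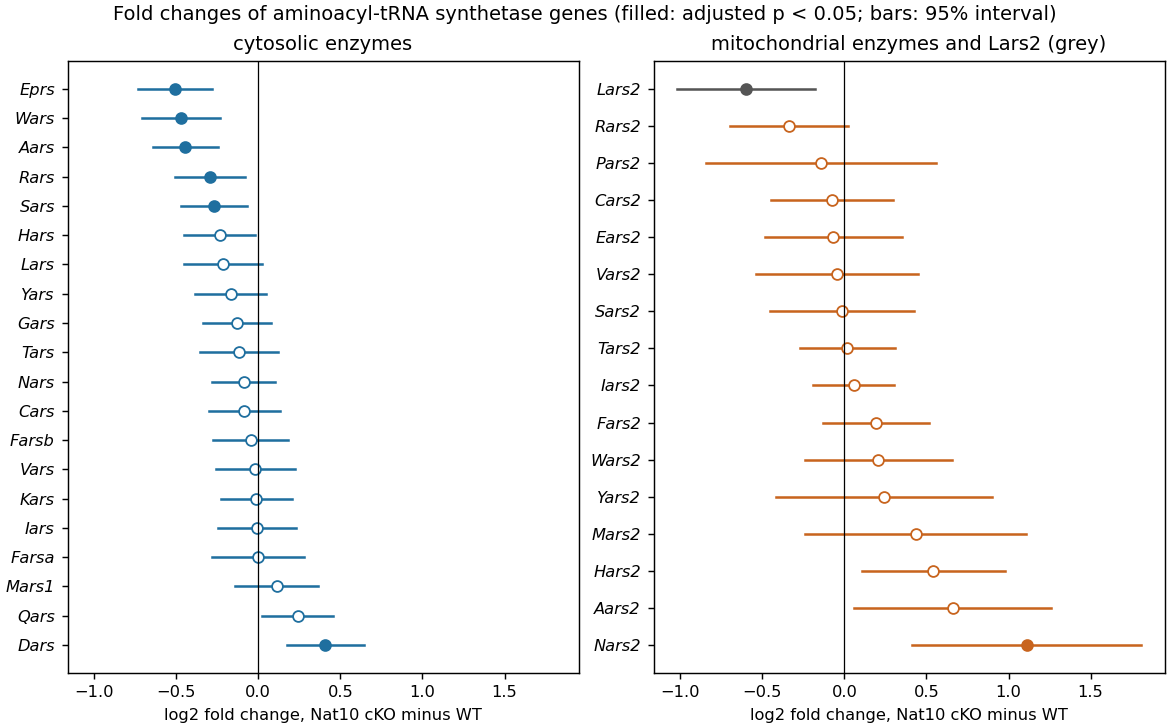
Log2 fold change (Nat10 cKO minus WT) of each synthetase gene with its 95% interval, cytosolic genes on the left and mitochondrial genes with Lars2 on the right, filled where the edgeR adjusted p was under 0.05. Eprs lies lowest of the cytosolic genes at -0.51 and Dars highest at 0.41, and the mitochondrial intervals are wider.

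Eprs (ENSMUSG00000026615, chromosome 1, 185095241 to 185160557 on GRCm39), the glutamyl-prolyl enzyme of the multi-synthetase complex, was the most counted cytosolic member. It stood at 470 and 384 CPM in the cKO-labelled libraries and at 650 and 564 CPM in WT. Both Nat10 cKO libraries lay below both WT libraries, although the replicates of each group were themselves some way apart. The means were 427 ± 60.5 and 607 ± 60.7 CPM (SD, n = 2), and the log2 fold change came to -0.51 (SE 0.107, edgeR adjusted p = 0.00151). Without WT replicate 1 the adjusted p was 0.0624, with alternatives reaching down to 5.55e-12.

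Aars (ENSMUSG00000031960, chromosome 8, 111759776 to 111784296), the alanyl enzyme, stood at 196 and 186 CPM in the cKO-labelled libraries and at 254 and 266 CPM in WT. The groups did not overlap, and the gap between them was several times that between replicates. The log2 fold change came to -0.44 (SE 0.0945, edgeR adjusted p = 0.00159). From gene start to gene end in the deposited coordinates, Aars shares 1326 bases with Exosc6 on the same strand. How reads there were counted was not known. Without WT replicate 2 its adjusted p was 0.0550, and over the alternatives it began at 4.89e-07.

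Wars (ENSMUSG00000021266, chromosome 12, 108825956 to 108860100) stood at 45.5 and 48.6 CPM in the cKO-labelled libraries and at 60.2 and 69.9 CPM in WT, with no overlap. Its log2 fold change came to -0.47 (SE 0.113, edgeR adjusted p = 0.00412). Wars shares 544 bases with Wdr25 on the other strand, and without a known strand setting reads there cannot be assigned to one of them. Genes of the interferon response were lower in the cKO-labelled libraries. Of 20 such genes tested, 20 fell and 0 rose, where 14.4% of all genes were lower, with a median log2 fold change of -1.68. The 4 with the smallest p were Gbp5 (-3.22), an interferon-inducible GTPase, and the antiviral effectors Ifit1 (-2.24), Ifit2 (-2.44) and Rsad2 (-2.07). A link between the fall of Wars and that of these genes was not tested. Without WT replicate 2 the log2 fold change of Wars was -0.35 and its adjusted p 0.120, in a range that began at 3.33e-05.

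Rars and Sars, the arginyl and the seryl enzyme, were lower by smaller amounts. Rars (ENSMUSG00000018848, chromosome 11, 35699208 to 35725333) stood at 85.3 and 79.7 CPM against 100.2 and 102 CPM in WT, a log2 fold change of -0.30 (SE 0.102, edgeR adjusted p = 0.0358). Sars (ENSMUSG00000068739, chromosome 3, 108332181 to 108352525) stood at 203 and 192 CPM against 228 and 247 CPM, a log2 fold change of -0.27 (SE 0.0960, edgeR adjusted p = 0.0433). Neither gene had overlapping groups. Both calls ended in DESeq2 (adjusted p = 0.0724 for Rars and 0.0644 for Sars), with upper-quartile factors, with library size only, and without Nat10 cKO replicate 2, WT replicate 1 or WT replicate 2, in ranges of adjusted p from 0.00495 to 0.235 for Rars and from 0.00433 to 0.400 for Sars.

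Dars (ENSMUSG00000026356, chromosome 1, 128291444 to 128345105), the aspartyl enzyme and a member of the multi-synthetase complex, was the cytosolic gene that rose. It stood at 52.3 and 49.3 CPM in the cKO-labelled libraries and at 39.5 and 37.1 CPM in WT. The groups did not overlap, and both Nat10 cKO libraries were about as close to each other as the WT pair. Its log2 fold change came to 0.41 (SE 0.112, edgeR adjusted p = 0.0104). Without WT replicate 2 the adjusted p was 0.129, with alternatives reaching down to 0.000722.

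**Figure D3:**
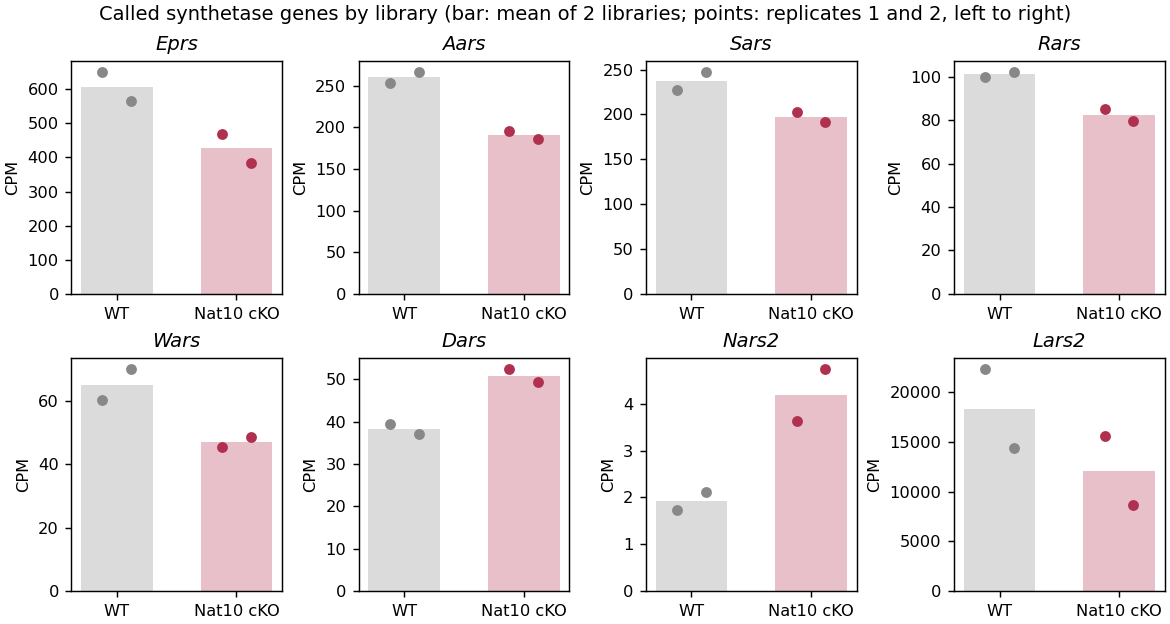
Level in CPM of the 8 called synthetase genes in each library, with WT in grey and Nat10 cKO in red. Bars are means of 2 libraries and points are replicates 1 and 2 from left to right. Groups are apart for 7 of these genes, which were chosen by their call, where 63.6% of all genes tested were apart in either direction. For Lars2, Nat10 cKO replicate 1 (15571 CPM) lies above WT replicate 2 (14390 CPM).

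The 14 cytosolic genes that did not pass had log2 fold changes from -0.24 (Hars, the histidyl enzyme, edgeR adjusted p = 0.0974) to 0.24 (Qars, the glutaminyl enzyme, edgeR adjusted p = 0.0876). Hars stood at 61.4 and 62.0 CPM against 70.7 and 74.6 CPM in WT, and Qars at 109 and 104 CPM against 86.3 and 93.8 CPM, both without overlap. Qars was called with upper-quartile factors (0.34, adjusted p = 0.0185), with library size only (0.31, 0.0331) and without Nat10 cKO replicate 2 (0.27, 0.0467). The other 12 were Lars, Yars, Gars, Tars, Nars, Cars, Farsb, Vars, Kars, Iars, Farsa and Mars1, which charge leucine, tyrosine, glycine, threonine, asparagine, cysteine, phenylalanine (as the subunits Farsa and Farsb), valine, lysine, isoleucine and methionine. Their values lay between -0.21 (Lars) and 0.11 (Mars1). The 95% intervals of the 12 lay within -0.45 and 0.37, so changes larger than those were outside every interval.

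Of the 8 enzymes of the multi-synthetase complex, Eprs and Rars fell, Dars rose, and Iars, Lars, Mars1, Qars and Kars did not pass, with a median log2 fold change of -0.0093 and 37.5% called against 28.8% of all genes. Of the 12 cytosolic genes outside the complex, 3 fell and 0 rose, with a median of -0.12 and 25% called. Both shares lie near that of all genes at these small numbers, and the difference between the 2 sets was not tested. Eef1e1, a scaffold of the complex, fell from 46.9 ± 5.29 to 33.6 ± 2.16 CPM (SD, n = 2), a log2 fold change of -0.49 (SE 0.121, edgeR adjusted p = 0.00512). Without WT replicate 2 its adjusted p was 0.124, in a range that began at 5.29e-05. The scaffolds Aimp1 (-0.19) and Aimp2 (-0.12) did not pass.

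In the list of partner genes, 17 of 18 were tested, 2 were higher and 1, Eef1e1, was lower, or 17.6% called against 28.8% of all genes. Tarsl2, a second cytosolic threonyl-tRNA synthetase that the symbol pattern does not take, had 44 and 46 counts in the cKO-labelled libraries and 8 and 20 in WT. Its log2 fold change came to 1.5 (SE 0.401, edgeR adjusted p = 0.00873), and without WT replicate 1 its adjusted p was 0.0656, in a range that began at 0.00103. Qrsl1, a subunit of the amidotransferase that makes glutaminyl-tRNA in mitochondria, stood at 8.28 and 7.87 CPM against 5.31 and 5.01 CPM (log2 fold change 0.65, SE 0.219, edgeR adjusted p = 0.0339). Its partner subunits Gatb (-0.18) and Gatc (0.03) did not pass. The call of Qrsl1 ended in DESeq2 (adjusted p = 0.156) and with any 1 library left out (0.0598 to 0.159). The elongation factors that carry charged transfer RNA to the ribosome, Eef1a1 in the cytosol (0.22) and Tufm in mitochondria (0.20), did not pass.

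Of 27 genes of the amino acid response, ATF4 and its known targets, 9 fell and 3 rose, where 14.4% of all genes moved in each direction. Their median log2 fold change was -0.10. The 4 with the smallest p were Nupr1 (-1.24), Ppp1r15a (-1.13), the phosphatase subunit that reverses eIF2 alpha phosphorylation, the cystine transporter Slc7a11 (-0.92), and the lipoprotein receptor Vldlr (1.23). Atf4 itself was at -0.11 (SE 0.0898, edgeR adjusted p = 0.401), and the asparagine synthetase gene Asns at -0.26 (SE 0.105, edgeR adjusted p = 0.0750). Of the 5 cytosolic synthetases whose promoter window holds TGATGNAA, Aars fell and Gars (-0.13), Yars (-0.17), Tars (-0.12) and Iars (-0.01) did not pass. Of the 8 matched cytosolic genes without it, Eprs and Sars fell and Dars rose, where 14.4% of all genes were called in each direction. Wars and Rars, which also fell, had no matched window, so whether they hold the element was not known. The difference between genes with and without it was not tested. In the cKO-labelled libraries 10 of 11 stromal, 4 of 6 neutrophil, 7 of 10 osteoclast and 3 of 10 macrophage markers tested were higher. Lower were 1 neutrophil, 2 osteoclast and 3 macrophage markers, where 14.4% of all genes were called in each direction. The part of these marker shifts in the values of this paragraph was not tested.

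Among the 16 mitochondrial synthetases without Lars2, Nars2 was higher and the other 15 did not pass, which is 6.25% called against 28.8% of all genes. The call was lost with DESeq2, leaving 0 of 16 (1 at an unadjusted p under 0.05), where 2273 of all genes were called against 3302 in the main test. In edgeR it was also lost without cKO replicate 2 (Nars2 at 0.90) and without WT replicate 1 (0.99), where fewer of all genes were called too. The median log2 fold change of the 16 was 0.11, against 0.0075 over all genes tested, and 10 of 16 values were positive. These genes were counted far less deeply than the cytosolic ones. Standard errors of the log2 fold change ran from 0.118 to 0.334 with a median of 0.208, against 0.0925 to 0.133 with a median of 0.106 for the cytosolic genes. Groups did not overlap for 5 that were higher and 4 that were lower, where 32.3% and 31.3% of all genes were so.

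Nars2 (ENSMUSG00000018995, chromosome 7, 96600712 to 96713965), the mitochondrial asparaginyl enzyme, had 42 and 68 counts in the cKO-labelled libraries and 17 and 27 in WT. That is 3.62 and 4.74 CPM against 1.74 and 2.11 CPM, with no overlap. Its log2 fold change came to 1.11 (SE 0.333, edgeR adjusted p = 0.0173). The call ended in DESeq2 (adjusted p = 0.0837) and without Nat10 cKO replicate 2 (0.90, adjusted p = 0.150) or WT replicate 1 (0.99, adjusted p = 0.0814), in a range of adjusted p that began at 0.00449.

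Aars2 and Hars2, the mitochondrial alanyl and histidyl enzymes, came next and did not pass. Aars2 stood at 5.09 CPM in both cKO-labelled libraries and at 3.78 and 2.74 CPM in WT (log2 fold change 0.66, 95% interval 0.061 to 1.26, edgeR adjusted p = 0.0926). Hars2 stood at 9.05 and 9.61 CPM against 7.15 and 5.80 CPM (log2 fold change 0.54, 95% interval 0.11 to 0.98, edgeR adjusted p = 0.0584). Neither had overlapping groups. Hars2 was called with upper-quartile factors (adjusted p = 0.0289), with library size only (0.0351) and with no filter on low counts (0.0403). It shares 198 bases with Hars, which lies head to head with it on the other strand, and without a known strand setting reads there cannot be assigned to one of them.

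The lowest value of the mitochondrial set was that of Rars2, at 10.1 and 11.6 CPM against 13.9 and 13.5 CPM in WT (log2 fold change -0.34, SE 0.170, edgeR adjusted p = 0.154). Of the others, 11 are named here, Pars2, Cars2, Ears2, Vars2, Sars2, Tars2, Iars2, Fars2, Wars2, Yars2 and Mars2. They lay between -0.14 (Pars2, the prolyl enzyme) and 0.43 (Mars2, edgeR adjusted p = 0.345). Iars2, the isoleucyl enzyme, was the most counted of them, at 37.5 and 36.9 CPM against 33.6 and 37.8 CPM, with an overlap and a 95% interval of -0.19 to 0.30. Yars2, the tyrosyl enzyme, had the largest SD relative to its mean in the cKO-labelled libraries among these 11, at 3.19 and 6.55 CPM in the cKO-labelled libraries against 4.6 and 3.84 CPM in WT.

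Set against each other by amino acid, 16 pairs of a cytosolic and a mitochondrial gene were examined for 15 amino acids, with Eprs entering for glutamate and proline and with both phenylalanyl subunits. The mitochondrial gene had the higher log2 fold change in 14 of the 16 pairs. Pairs that share Eprs or Fars2 are not independent, and some gaps were small, as for Cars (-0.084) and Cars2 (-0.072). The ratio of cytosolic to mitochondrial CPM was lower in both cKO-labelled libraries than in both WT libraries for 8 pairs, and overlapped for the other 8. Among single genes 31.3% were lower without overlap, and the share among other pairs of genes was not computed. The alanyl, asparaginyl and histidyl pairs are given because their ratios differed most between the groups. In the alanyl pair the log2 ratio was 5.27 and 5.19 in the cKO-labelled libraries and 6.07 and 6.60 in WT. In the asparaginyl pair it was 6.23 and 5.77 against 7.35 and 7.05. In the histidyl pair it was 2.76 and 2.69 against 3.31 and 3.69. The ratio does not depend on scaling, but 1 deeply and 1 thinly counted gene enter each pair, and the ratios were not tested. Arginine and valine were the 2 of these amino acids whose cytosolic gene had the higher value.

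**Figure D4:**
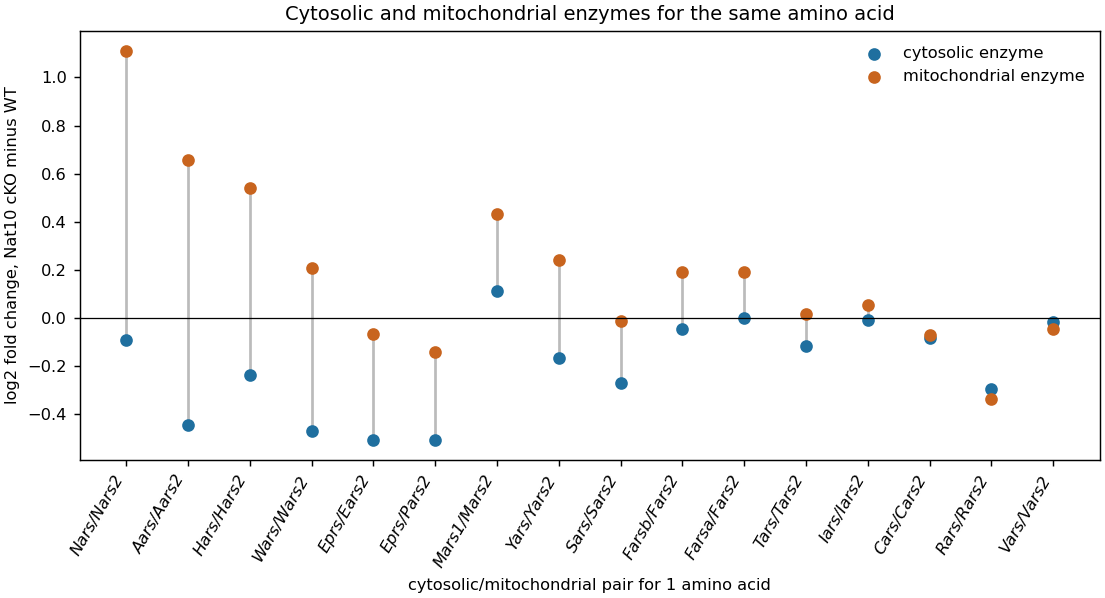
Log2 fold change (Nat10 cKO minus WT) of the cytosolic (blue) and mitochondrial (orange) synthetase gene for the same amino acid, 1 column per pair, ordered by the difference of the log2 ratio between groups. The mitochondrial point lies above the cytosolic one in 14 of 16 pairs, with the widest gap for Nars and Nars2 (-0.09 and 1.11).

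Summed over members, the cytosolic genes came to 2196 and 2088 CPM in the cKO-labelled libraries and to 2500 and 2514 CPM in WT. The sum of the 16 mitochondrial genes was 160 and 173 CPM against 157 and 155 CPM. Eprs was the largest single contributor, with 470 and 384 CPM of the sums in the cKO-labelled libraries and 650 and 564 CPM of those in WT.

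Lars2 (ENSMUSG00000035202, chromosome 9, 123195992 to 123291731 on GRCm39) stood apart from every other member. It had 180561 and 124290 counts in the cKO-labelled libraries and 218474 and 183725 in WT, which is 0.882% to 2.18% of all counts of a library and the 3rd to 9th highest count among all genes. Per length its WT level was 1115 times the median of the other mitochondrial genes. The counts per gene do not show where along Lars2 the reads lie. Whether they come from its coding sequence or from a repeated or ribosomal RNA-like stretch was not tested, so neither its level nor its fold change need be that of the enzyme's mRNA.

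The level of Lars2 was 15571 and 8658 CPM in the cKO-labelled libraries and 22309 and 14390 CPM in WT. The groups overlapped, and within each group the 2 replicates differed more for Lars2 than for any other of the 1787 genes with a mean of at least 100 CPM. That gap was 0.85 on the log2 scale in the cKO-labelled libraries and 0.63 in WT, against a median of 0.12 and 0.076 over those genes. The log2 fold change came to -0.60 (SE 0.20, 95% interval -1.02 to -0.18, edgeR adjusted p = 0.0316). It was -1.09 without Nat10 cKO replicate 1, -0.23 without Nat10 cKO replicate 2, -0.25 without WT replicate 1 (adjusted p = 0.455) and -0.88 without WT replicate 2. DESeq2 gave an adjusted p of 0.487, with alternatives ranging from 1.45e-31 up to that value. With Lars2 left out of the library sizes, an alternative chosen after its share was seen, the calls of the other 36 members came to the same counts.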

How the data were processed

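The authors deposited 1 count table, holding unnormalized whole read counts for each gene, for 4 libraries of mouse bone marrow cells after 3 days of RANKL. The submitters' processing notes name GRCm39 and the programs STAR 2.7.9a, featureCounts 2.0 and fastp 0.20.0. The sources used here give no strand setting. The table lists protein-coding genes only, with Ensembl identifiers, symbols and coordinates.

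Of 21834 genes, 6402 had no count, and filterByExpr kept 11448. TMM factors set the scale. The test was the quasi-likelihood test of edgeR 4.0.16 under R 4.3.3 (two-sided, by glmQLFit and glmQLFTest, group as the only term, Benjamini-Hochberg adjustment over all genes tested, called under 0.05). Log2 fold changes are Nat10 cKO minus WT, and intervals are 95%. DESeq2 1.42.0, other scalings, no filter, a replicate term and leaving out each library were alternatives. The procedure was first run on counts simulated with the levels and spread of these data, which checks the code only. Replicates differed by more than sampling noise, with a mean chi-square per gene of 6.16 in WT and 11.2 in Nat10 cKO. Highly counted genes weigh more in this mean, which includes Lars2, so it does not describe a typical gene.

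The members, gene lists, motifs and tests were chosen with earlier results of these data known. Members called are described in each library, the others by range and count; of the amino acid response and interferon lists the 4 genes with the smallest p are named, and Atf4 and Asns were named after their values were seen. Tars3 of the fixed list appears as Tarsl2. The values of 1 mitochondrial gene and 1 promoter stretch are not reported here; that gene stays in the counts and medians of its set but in none of the pairs.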

Additional observations from a re-analysis of the deposited data

How the results depend on the processing

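The alternatives were read for 49 genes, which are not all the genes named and leave out the cell type markers. None of these genes that were called changed direction under any alternative run. Over 49 genes named and their alternatives, 463 of 538 values kept their direction and side of the threshold, 30 lost the call, 9 gained one and 36, all of uncalled genes, changed sign. The cause of the changes was not tested. Of all genes, 3302 were called, against 2273 with DESeq2, 3259 with RLE factors, 3357 with upper-quartile factors, 3278 with library size only and 3554 with no filter. The split of 1652 higher and 1650 lower became 2247 and 1110 with upper-quartile factors and 2026 and 1252 with library size only, which moved the median log2 fold change of all genes to 0.11 and 0.074. Cytosolic genes called were 3 lower with DESeq2, and 3 lower with 2 higher under each of those scalings. Mitochondrial genes called higher were 0 with DESeq2 and 2 with upper-quartile factors, library size only or no filter. Lars2 was not called with DESeq2 (-0.60), upper-quartile factors (-0.51) or library size only (-0.53). Leaving out 1 library gave 2031 to 3543 genes called, 1 to 5 cytosolic genes lower and 0 to 2 higher, 0 to 1 mitochondrial genes higher and 0 lower, and -1.09 to -0.23 for Lars2. With upper-quartile factors the sign turned for Cars (0.013), Farsa (0.096), Farsb (0.051), Iars (0.092), Kars (0.086), Nars (0.0079), Vars (0.081), Cars2 (0.026), Ears2 (0.032), Sars2 (0.087) and Vars2 (0.056). With library size only it turned for Farsa (0.066), Farsb (0.019), Iars (0.059), Kars (0.055), Vars (0.049), Ears2 (0.00036), Sars2 (0.054) and Vars2 (0.022). With 1 library left out it turned in at least 1 case for Iars (-0.12 to 0.092), Tars (-0.27 to 0.012), Sars2 (-0.11 to 0.070), Vars2 (-0.36 to 0.19), Farsa (-0.11 to 0.10), Kars (-0.059 to 0.040), Tars2 (-0.046 to 0.080), Yars2 (-0.39 to 0.64), Iars2 (-0.024 to 0.15), Farsb (-0.15 to 0.063) and Vars (-0.14 to 0.12), given as the lowest and highest value. The labels give both groups replicates 1 and 2 and do not say that the numbers pair the libraries; deviations of same-numbered libraries correlated at 0.112 over 11448 genes and 0.282 over 7856 genes of at least 10 CPM. With a replicate block 4301 genes were called, with 6 cytosolic genes lower and 2 higher, 2 mitochondrial genes higher, and Lars2 at -0.63; Hars, Qars and Hars2 gained a call. Standard errors were larger for the thinly counted mitochondrial genes (median 0.208) than for the cytosolic ones (median 0.106). Having 2 libraries per group limits every estimate of spread.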
